A study of Mus musculus with 5 samples.

Results

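The genes described here are 10 lysosomal and granule genes of the mouse, taken by symbol from a fixed list. They are the lysozymes Lyz1 and Lyz2, the cathepsins Ctsa, Ctsb, Ctsd, Ctsh, Ctss and Ctsz, and the membrane proteins Cd63 and Cd68. Each of the 10 matched 1 feature of its own name in every table, out of 34315 features in the granulocyte tables and 38166 in the KSL tables. Their transcripts were measured by sequencing of polyA-selected RNA in 5 libraries from C57BL/6 mice. KSL cells are a bone marrow population (c-Kit+, Sca-1+, lineage-negative) in which the stem cells and earliest progenitors of the blood are found. The LncHSC-1-KD and LncHSC-2-KD libraries came from KSL cells carrying a knockdown retrovirus against the long non-coding RNA LncHSC-1 or LncHSC-2, and the Control-KD library from KSL cells carrying the control virus. All 3 groups share the same history: Sca-1+ cells of mice injected with 5-FU, a drug that kills dividing blood cells, were transduced, kept for 2 days in Stempro 34 medium with nutrient supplement, penicillin/streptomycin, 2 mM L-glutamine, 10 ng/ml mSCF (stem cell factor) and 100 ng/ml mTPO (thrombopoietin), and sorted for the GFP marker of the virus. The sources used here give neither the age and number of these mice nor the sequences of the knockdown constructs. Each of these groups is 1 library, so no difference between them has a replicate check and no p-value is given. The other 2 libraries are technical replicates of 1 biological replicate of Gr1+ granulocytes sorted from bone marrow at 12 months of age, so n = 1 there as well.

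Lysosomes are acidic compartments in which proteases, glycosidases and lipases break down material taken up from outside the cell or delivered from within it. Cathepsins are their main proteases: Ctsd is an aspartic protease, Ctsb, Ctsh, Ctss and Ctsz are cysteine proteases of the papain family, and Ctsa is a serine carboxypeptidase that also shields neuraminidase and beta-galactosidase in a complex. In the myeloid lineage the same machinery feeds the granules of neutrophils and the phagosomes of macrophages, and lysozyme, which cuts the cell wall of bacteria, is stored in granules and secreted. In the mouse, lysozyme is encoded by a pair of neighbouring genes, of which Lyz2 is known for its expression in myeloid cells and Lyz1 for that in Paneth cells of the small intestine.

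Lyz1 and Lyz2 lie next to each other on the minus strand of chromosome 10 (mm9, 116724851 to 116729924 for Lyz1 and 116714597 to 116719328 for Lyz2). In the GENCODE M21 transcripts (GRCm38) their coding sequences, both of 444 bases, were identical at 422 positions and differed at 22, and the whole transcripts at 96.0% of aligned bases. The stretch of coding bases 61 to 120, which holds 9 of these differences, is shown because the counts of the 2 genes can only be told apart where the sequences differ; capitals mark the differing bases.
Lyz1: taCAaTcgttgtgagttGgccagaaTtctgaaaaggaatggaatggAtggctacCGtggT
Lyz2: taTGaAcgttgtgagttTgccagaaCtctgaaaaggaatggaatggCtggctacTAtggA
The longest run that both transcripts share was 118 bases. Of all windows of 50 bases in the Lyz1 transcript, 16.1% also occurred in the Lyz2 transcript, and of those of 100 bases, 2.06%. The sources used here give neither the read length nor the handling of reads that fit both genes, so the Lyz1 values below are uncertain.

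RefSeq promoters (GRCm38.p6, 250 bases before to 50 after the start) were matched for 8 of the 10 genes; Ctsb and Ctsh had no entry. They were searched on both strands for TCACGTGA, the core of the element bound by TFEB, the transcription factor of lysosome genes, for its inner E-box CACGTG, which every TCACGTGA also holds, and for GAGGAAGT, a sequence bound by the myeloid factor PU.1. TCACGTGA stood in a promoter of Ctsa and in that of Ctsd, against 0.974% of all 32851 promoters, and CACGTG in the same 2 genes, against 7.15%. GAGGAAGT stood in the promoter of Ctss alone among the 8 genes, against 3.20% of all promoters. The windows of these matches are shown because Ctsd and Ctss are the cathepsins on which the results below turn; capitals mark the motif, with positions counted from the start site.
Ctsa, plus strand, chr2:164833757-164833786, matches from −13 and from 5: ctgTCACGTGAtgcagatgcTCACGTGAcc
Ctsd, minus strand, chr7:142387908-142387937, match from −99: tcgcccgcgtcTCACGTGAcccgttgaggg
Ctss, plus strand, chr3:95526773-95526802, match from −2 on the opposite strand: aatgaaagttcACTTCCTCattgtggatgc
A match describes the letters in these windows and is not evidence of binding.

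Values are given in FPKM as the authors deposited them, a read count scaled for transcript length and sequencing depth, which puts genes of unequal length on one scale. Estimated depth was 24.1, 19.9 and 21.0 M reads in the LncHSC-1-KD, LncHSC-2-KD and Control-KD libraries, and 37.9 and 46.7 M in the granulocyte replicates. The KSL libraries held the transcripts of Sca-1 and c-Kit: Ly6a, which codes for Sca-1, was at 1211, 1025 and 1010 FPKM and Kit at 59.1, 62.0 and 67.6 FPKM in the LncHSC-1-KD, LncHSC-2-KD and Control-KD libraries. The progenitor marker Cd34 was at 204, 237 and 229 FPKM in the same order. Some transcripts of mature lineages were present as well. In that order 4, 3 and 3 of 6 B cell markers were at 5 FPKM or more. So were 7 of 12 neutrophil markers in each library and 1, 0 and 0 of 6 T cell markers. In the granulocytes all 12 neutrophil markers were at 5 FPKM or more and summed to 158385 FPKM, against 183, 193 and 199 FPKM in the same order of KSL libraries. Monocyte and macrophage markers were also present in the granulocytes, 6 of 14 at 5 FPKM or more with a sum of 331 FPKM. Mast cell and basophil markers summed to 278 FPKM there (3 of 8 at 5 FPKM or more), dendritic markers to 106 FPKM (4 of 9) and eosinophil markers to 67.8 FPKM (1 of 3). T cell, megakaryocyte and B cell markers summed to 11.7, 2.74 and 2.71 FPKM. The part of any of these cells in the granulocyte values of Cd68 and the cathepsins was not tested. In bulk RNA such as this, fewer cells of a type and less RNA per cell cannot be told apart. Granulocytes and KSL cells were sequenced in separate experiments whose tables use different transcript models and scaling, so no fold is given between them.

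Lyz2 dominated the group in granulocytes. It stood at 7899 and 8007 FPKM in the replicates, was at or above 99.9% of the features that reached 5 FPKM, and made up 90.1% of the summed FPKM of the 10 genes. The 10 genes together took 1.99% of all FPKM. Ctsd followed at 505 and 499 FPKM, at the 98.9th percentile. Both genes lay far above the other 8, which stood between 16.6 and 103 FPKM.

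**Figure D1:**
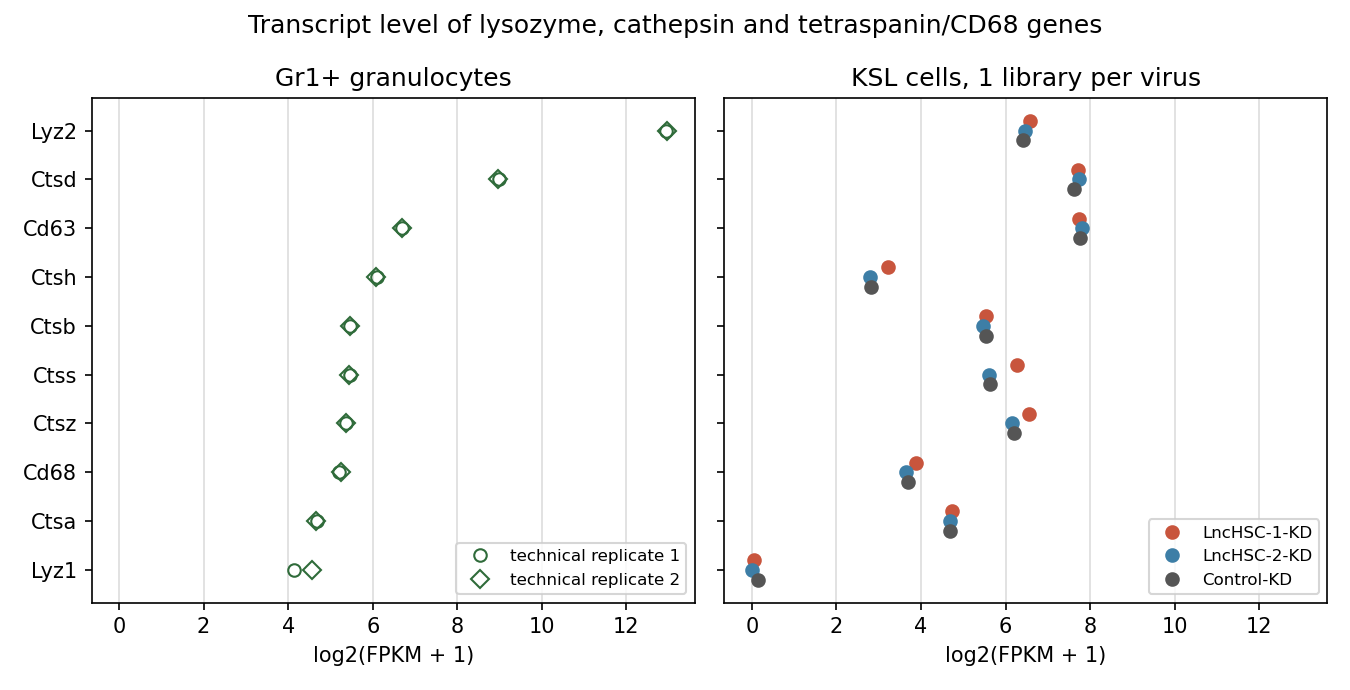
Level of each gene as log2(FPKM + 1), on the left in the technical replicates of the granulocyte sample and on the right in the 3 KSL libraries. Lyz2 and Ctsd lead in granulocytes, at 7953 and 502 FPKM on average, while Cd63 and Ctsd lead in the KSL libraries and Lyz1 is near 0.

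Cd63, a tetraspanin of late endosomes and granule membranes, was at 103 and 102 FPKM in the granulocyte replicates. Ctsh, an aminopeptidase, was at 67.3 and 66.1 FPKM. Below it came a tight group. Ctsb, which acts as an endopeptidase and as a dipeptidyl carboxypeptidase, was at 43.1 and 42.8 FPKM, and Ctss, the protease of antigen-presenting cells that trims the class II invariant chain, at 43.0 and 42.6 FPKM. The ranges of Ctsb and Ctss overlapped, and these were the only neighbours in the order that the replicates did not separate. Ctsz, a carboxypeptidase, was at 40.2 and 40.6 FPKM. Cd68, a heavily glycosylated lysosomal membrane protein used as a macrophage marker, was at 36.0 and 37.1 FPKM. Ctsa closed the cathepsins at 24.7 and 24.3 FPKM. These ranges show technical spread and leave out the spread between animals.

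Lyz1 was the lowest of the 10 genes in granulocytes and the least reproducible. It was at 16.6 and 22.8 FPKM in replicates 1 and 2, about 979 and 1662 estimated reads. The scaled count of replicate 2 was 1.38 times that of replicate 1 (95% counting interval 1.27 to 1.49), whereas the other 9 genes gave ratios from 0.982 to 1.03. Of the 6057 features at 5 FPKM or more, 0.231% differed at least as much between the replicates. Lyz1 reads amounted to 0.251% and 0.341% of Lyz2 reads. Whether reads of Lyz2 account for any of the Lyz1 values was not tested.

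In the KSL libraries the order was another. Cd63 was highest, at 212, 222 and 215 FPKM in the LncHSC-1-KD, LncHSC-2-KD and Control-KD libraries, and Ctsd next, at 210, 213 and 194 FPKM. Counting intervals of these neighbours overlapped in both knockdown libraries and not in the Control-KD library. Lyz2 came next, at 93.9, 87.7 and 84.8 FPKM, and made up 12.1% of the summed FPKM of the 10 genes in each library. Ctsz, Ctss and Ctsb followed in that order in all 3 libraries, with Ctsz not separated from Lyz2 in the LncHSC-1-KD library. Ctss and Ctsb were separated by their counting intervals in the LncHSC-1-KD library, at 76.3 and 45.6 FPKM, and in the LncHSC-2-KD library, at 48.2 and 43.0 FPKM, but not in the Control-KD library, at 49.0 and 45.7 FPKM. Ctsa was at 25.6, 24.8 and 24.9 FPKM and Cd68 at 13.7, 11.4 and 11.9 FPKM, in the same order of libraries.

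Ctsh and Lyz1 stood at the bottom in KSL cells. Ctsh was at 8.34, 5.92 and 6.07 FPKM in the LncHSC-1-KD, LncHSC-2-KD and Control-KD libraries, at the 16.5th, 5.26th and 5.47th percentile of features that reached 5 FPKM, against the 87.9th percentile in granulocytes. These percentiles depend on the floor, which lies close below Ctsh in KSL cells. With a floor of 1 FPKM they were 38.5, 29.8 and 30.1 in the same order of libraries and 92.7 in granulocytes. Lyz1 had 1, 0 and 3 estimated reads, while Lyz2 had 2486, 1876 and 1925. The count of 0 in the LncHSC-2-KD library allows a level of up to about 0.107 FPKM. That bound is the floor of 3 counts at the FPKM per read of the Control-KD library, so it is approximate for the LncHSC-2-KD library. No ratio is given for Lyz1. The other 9 genes had a mean of at least 5 FPKM over the 3 libraries, the floor set on low values, and are the measured ones in the ratios below.

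The share of each cathepsin in their summed FPKM differed by sample. Granulocyte and KSL shares rest on different transcript models, with longer KSL spans for Ctsa, Ctsb and Ctsz. How much of their contrast comes from the models was not tested. Ctsd made up 69.8% of the summed FPKM of the 6 cathepsins in granulocytes, 45.8% in the LncHSC-1-KD library, 52.5% in the LncHSC-2-KD library and 49.6% in the Control-KD library. Ctsz and Ctss took 5.61% and 5.95% in granulocytes, 20.2% and 16.6% in the LncHSC-1-KD library, 17.4% and 11.9% in the LncHSC-2-KD library and 18.4% and 12.5% in the Control-KD library. Ctsh took 9.27% in granulocytes and between 1.46% and 1.82% in the KSL libraries. The sum of the 6 genes was 720 FPKM in granulocytes, 459 FPKM in the LncHSC-1-KD library, 405 FPKM in the LncHSC-2-KD library and 392 FPKM in the Control-KD library.

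**Figure D2:**
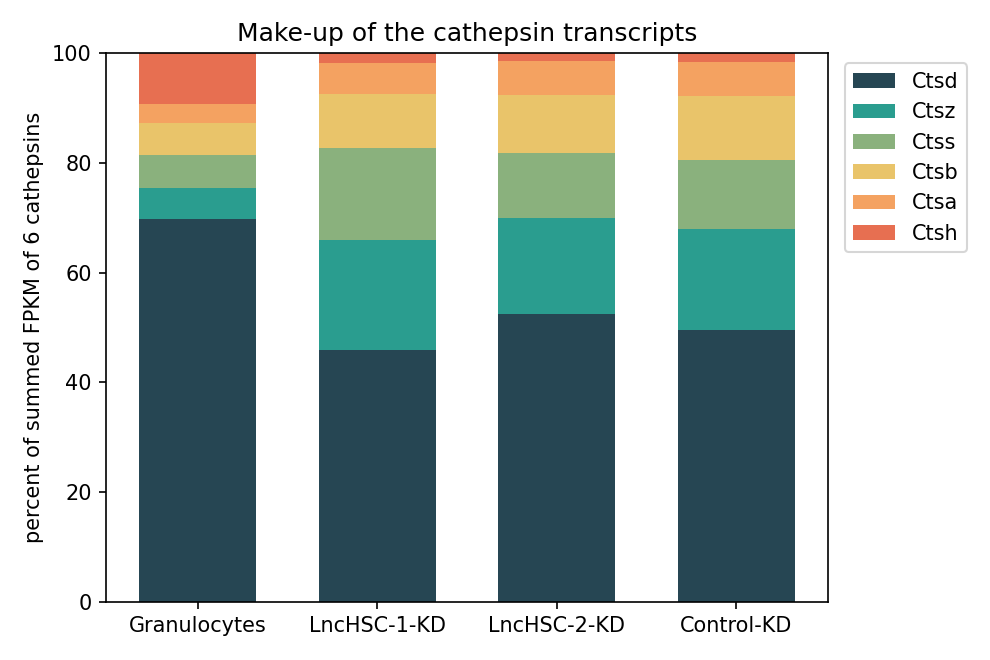
Share of each cathepsin in the summed FPKM of the 6 cathepsins, for the mean of the granulocyte replicates and for each KSL library. The transcript models behind the granulocyte bar differ from those behind the KSL bars. Ctsd fills 69.8% of the granulocyte bar and 45.8% to 52.5% of the KSL bars, and Ctss is widest in the LncHSC-1-KD bar, at 16.6%.

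The knockdown libraries ask what loss of either long non-coding RNA does to gene expression. No source used here ties a feature of the tables to LncHSC-1 or LncHSC-2, so their depletion was not checked. Against Control-KD, the LncHSC-1-KD library held more transcript of 3 cathepsins, Ctss, Ctsh and Ctsz, and nearly the same of Cd63, Ctsb and Ctsa. Ctss was at 76.3 FPKM in the LncHSC-1-KD library and 49.0 FPKM in the Control-KD library, a log2 ratio of FPKM + 1 of 0.63. The 95% counting interval of the ratio of reads, which carries no pseudocount and covers counting error only, was 0.55 to 0.73 on the log2 scale. Of the 9153 features at or above the floor, 1.26% had a larger ratio. The LncHSC-1-KD value also lay above that of the LncHSC-2-KD library, 48.2 FPKM, so this library alone stood high for Ctss.

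Ctsh was at 8.34 FPKM in the LncHSC-1-KD library and 6.07 FPKM in the Control-KD library (log2 ratio 0.40, interval 0.21 to 0.70), and 2.71% of features had a larger ratio. This rests on 360 and 225 estimated reads, and with a pseudocount of 5 FPKM the ratio was 0.27. Ctsz was at 92.6 FPKM in the LncHSC-1-KD library and 72.0 FPKM in the Control-KD library (0.36, 0.29 to 0.44), and 3.15% of features had a larger ratio. The Ctsz feature overlaps that of its neighbour Th1l, whose reads cannot be told apart from those of Ctsz in the overlap unless strand was used, and Th1l was at 28.9 FPKM in the LncHSC-1-KD library and 29.4 FPKM in the Control-KD library.

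The remaining genes were closer to control. Cd68 was at 13.7 FPKM in the LncHSC-1-KD library and 11.9 FPKM in the Control-KD library (0.19, −0.04 to 0.44). Lyz2 was at 93.9 FPKM in the LncHSC-1-KD library and 84.8 FPKM in the Control-KD library (0.15, 0.06 to 0.23). For Ctsd the values were 210 FPKM in the LncHSC-1-KD library and 194 FPKM in the Control-KD library (0.11, 0.07 to 0.15). Ctsa (0.04), Ctsb (−0.00) and Cd63 (−0.02) had intervals that include 0.

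Of the 9 genes 7 were above Control-KD in the LncHSC-1-KD library and 2 below, where 43.8% of all features were above and 56.1% below. None passed 2-fold, as 0.634% of all features did upwards and 0.426% downwards. By a smaller rule of size, a log2 ratio past 0.32 in either direction, 3 of 9 were higher and 0 were lower, where 3.70% of all features were higher and 2.13% lower. The counting interval lay above 0 for 5 of 9 and below 0 for none, where 14.8% of all features lay above and 24.8% below; an interval that leaves out 0 says that libraries differ by more than counting error and does not speak of conditions. The median of the 9 log2 ratios was 0.15, against −0.02 over all 9153 features.

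**Figure D3:**
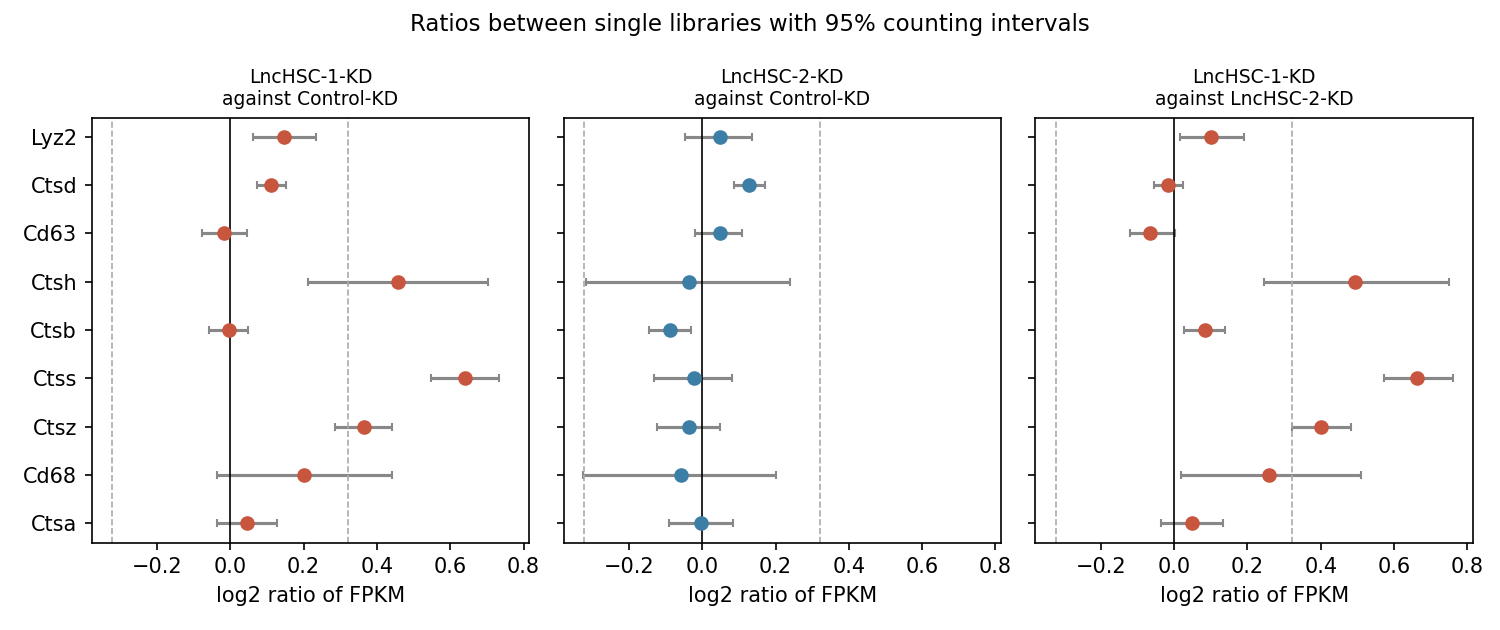
Log2 ratio of FPKM between single libraries for the 9 measured genes, with 95% counting intervals and dashed lines at ratios of 0.32 in either direction. Ctss, Ctsh and Ctsz lie past the line in the LncHSC-1-KD library against either of the other libraries, and no gene does in the LncHSC-2-KD library against Control-KD.

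Markers of several other blood cell types were also higher in the LncHSC-1-KD library. Marker counts here and below are of any size above Control-KD, in the LncHSC-1-KD library unless the other knockdown is named. Of all features at or above the floor 43.8% lay above Control-KD there. Many markers lay below that floor, where no share was computed and a difference can rest on few reads. In the LncHSC-1-KD library 5 FPKM was reached by 4 of 9 dendritic, 4 of 6 B cell and 2 of 14 monocyte and macrophage markers. It was reached by 7 of 7 megakaryocyte, 1 of 6 T cell, 7 of 12 neutrophil, 2 of 8 mast cell and basophil and 0 of 3 eosinophil markers. Dendritic markers were higher in 8 of 9 cases and summed to 279 FPKM in the LncHSC-1-KD library, 185 FPKM in the LncHSC-2-KD library and 170 FPKM in the Control-KD library. Most of that sum came from the feature of Cd74 and Mir5107 (143, 83.0 and 73.7 FPKM), H2-Ab1 (59.3, 44.9 and 41.9 FPKM) and H2-Aa (51.3, 29.5 and 27.4 FPKM), genes of class II presentation that B cells also express. Siglech was at 2.998, 2.07 and 2.22 FPKM in the LncHSC-1-KD, LncHSC-2-KD and Control-KD libraries and Flt3, which early progenitors also express, at 21.98, 24.7 and 24.4 FPKM. Itgax, Xcr1, Zbtb46 and Batf3 were all under 0.34 FPKM in the 3 libraries and all higher in the LncHSC-1-KD library than in the Control-KD library, and Batf3 was at 0 in the LncHSC-2-KD and Control-KD libraries.

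B cell markers were higher in 6 of 6 cases, with sums of 79.7 FPKM in the LncHSC-1-KD library, 48.3 FPKM in the LncHSC-2-KD library and 47.3 FPKM in the Control-KD library. A further list, monocyte and macrophage markers, was higher in 10 of 14 cases and summed to 58.4, 42.3 and 44.8 FPKM in the same order; none was at 0. The most abundant of them were Mpeg1, at 24.3, 15.9 and 17.7 FPKM, and Ly86, at 10.8, 7.71 and 6.42 FPKM, and Csf1r was at 2.31, 2.09 and 2.24 FPKM. Megakaryocyte markers were higher in 6 of 7 cases (706, 676 and 557 FPKM) and T cell markers in 5 of 6 (7.60, 5.34 and 5.69 FPKM), with Cd3e at 0 in both knockdown libraries. Most of the T cell sum was Lck, at 6.39, 4.56 and 4.91 FPKM. Neutrophil markers were higher in 6 of 12 cases, with Ly6g at 0 in the LncHSC-2-KD library, and their sums are given above. Mast cell and basophil markers were higher in 4 of 8 cases (20.4, 18.7 and 20.7 FPKM), and eosinophil markers in 0 of 3 (0.461, 4.25 and 5.48 FPKM). Nearly all of the eosinophil sum was a single gene, Prg2, at 0.450, 4.15 and 5.37 FPKM. Epx and Ccr3 were at 0.099 FPKM or less in these libraries, with Epx at 0 in the LncHSC-1-KD library and Ccr3 at 0 in the LncHSC-2-KD library. Ly6c2, which codes for an antigen that Gr1 antibodies also bind, was at 101, 42.3 and 32.5 FPKM in the LncHSC-1-KD, LncHSC-2-KD and Control-KD libraries. The other genes listed for the granulocyte sort differed in direction. In the same order, Ly6c1 was at 11.9, 7.97 and 7.73 FPKM, Itgam at 4.75, 5.48 and 4.65 FPKM and Ly6g at 0.387, 0 and 0.677 FPKM. In the LncHSC-2-KD library 7 of 9 dendritic, 5 of 7 megakaryocyte, 3 of 6 B cell and 5 of 14 monocyte and macrophage markers were above Control-KD. So were 2 of 6 T cell, 4 of 12 neutrophil, 2 of 8 mast cell and basophil and 1 of 3 eosinophil markers. Of all features at or above the floor 52.1% were above Control-KD in that library. The part of any of these cell types in the higher Ctss, Ctsh and Ctsz of the LncHSC-1-KD library was not tested.

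In the LncHSC-2-KD library the log2 ratio to Control-KD stayed below 0.32 in size for all 9 measured genes; 3 were above Control-KD and 6 below, where 52.1% of all features were above and 47.9% below. Ctsd was furthest above, at 213 FPKM in the LncHSC-2-KD library and 194 FPKM in the Control-KD library (log2 ratio 0.13, interval 0.09 to 0.17), with 12.5% of features higher. Ctsb was furthest below, at 43.0 FPKM in the LncHSC-2-KD library and 45.7 FPKM in the Control-KD library (−0.09, −0.14 to −0.03), with 17.5% of features lower. Their intervals were the only ones of the 9 that leave out 0, where 12.9% of all features lay above 0 and 12.6% below. Ctss (48.2 FPKM in the LncHSC-2-KD and 49.0 FPKM in the Control-KD library), Ctsz (70.2 and 72.0 FPKM) and Ctsh (5.92 and 6.07 FPKM) did not show the higher levels of the LncHSC-1-KD library.

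None of the 9 was past the smaller rule in the LncHSC-2-KD library, where 2.29% of all features were higher and 1.64% lower, and none past 2-fold (0.601% and 0.350%). The median log2 ratio was −0.02, against 0.00 over all features. The deposited count columns are scaled otherwise and place the median of all features of this library at −0.14 against Control-KD; on that scale the Ctsd ratio was −0.02 in place of 0.13, those of Lyz2 and Cd63 were −0.10 each in place of 0.05, and of all features past 0.32 in size 17.6% were higher in place of 58.3%.

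**Figure D4:**
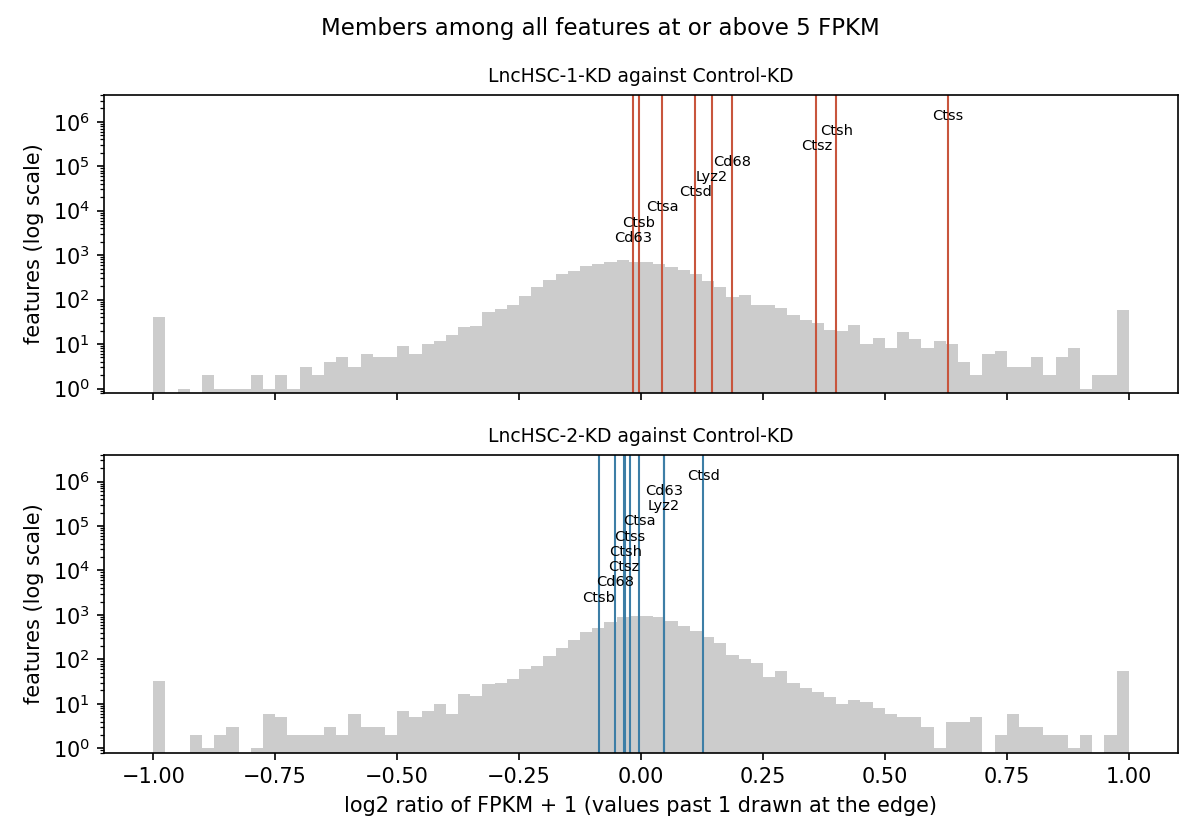
Distribution of the log2 ratio of FPKM + 1 over 9153 features for LncHSC-1-KD against Control-KD (top) and LncHSC-2-KD against Control-KD (bottom), with a line for each of the 9 measured genes; counts are on a log axis. Ctss, Ctsh and Ctsz stand in the upper tail at the top, with 1.26% to 3.15% of features above them, and all lines lie near the centre at the bottom.

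Both comparisons with Control-KD share that single library, and the comparison of the knockdown libraries with each other leaves it out. Ctss was at 76.3 FPKM in the LncHSC-1-KD library and 48.2 FPKM in the LncHSC-2-KD library (log2 ratio 0.65, interval 0.57 to 0.76), Ctsh at 8.34 and 5.92 FPKM in the same order (0.43, 0.25 to 0.75), and Ctsz at 92.6 and 70.2 FPKM (0.39, 0.32 to 0.48). Cd68 was at 13.7 FPKM in the LncHSC-1-KD library and 11.4 FPKM in the LncHSC-2-KD library (0.24, 0.02 to 0.51). Ctsd was at −0.02 (−0.06 to 0.02) and Cd63 at −0.06 (−0.12 to 0.00). Of the 9 genes 7 were above LncHSC-2-KD and 2 below, where 40.4% of all features were above and 59.5% below, and 6 intervals lay above 0 and none below, where 12.5% and 23.2% of all features did. Past 0.32 in size 3 of 9 were higher and 0 lower, where 3.30% of all features were higher and 2.52% lower, and none passed 2-fold (0.535% and 0.612%). With the count columns as deposited the ratios of Ctsd and Cd63 were 0.13 and 0.09, 4 of 9 were past it, Cd68 (0.41) being the one added, and of all features past it 87.6% were higher in place of 56.7%.

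Other genes of the lysosome and genes related to it were followed in 6 lists of 107 genes, called other lysosome genes for short. The set is mixed: it also holds cathepsin inhibitors, transcription factors and tetraspanins, not all of which code for lysosomal proteins. Of the 107, 90 were at or above the floor in the KSL libraries, where 9153 of all 38166 features were. In the LncHSC-1-KD library 53 of the 90 were above and 37 below Control-KD, 2 were higher and 1 lower by the 0.32 rule, and their median was 0.02. Of all 9153 features 43.8% were above and 56.1% below, and 3.70% were higher and 2.13% lower by that rule. In the LncHSC-2-KD library 47 were above and 43 below, 1 was higher by that rule and 0 were lower, and the median was 0.01. Of all features 52.1% were above and 47.9% below there, and 2.29% were higher and 1.64% lower by the rule. None of the 90 passed 2-fold in either library, as 0.634% of all features did upwards and 0.426% downwards in the LncHSC-1-KD library and 0.601% and 0.350% in the LncHSC-2-KD library. The counts by list below are to be read beside the same shares.

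The proteases outside the 10 genes had a median of 0.12 in the LncHSC-1-KD library, with 7 of 9 above Control-KD. Napsa, an aspartic protease, was at 146 FPKM in the LncHSC-1-KD library and 116 FPKM in the Control-KD library (0.33), and the aspartic protease Ctse at 124 and 111 FPKM in the same order (0.16). Ctso (−0.07) and Tpp1 (−0.03) were lowest. In the LncHSC-2-KD library the median was 0.03: Ctsc, which activates granule serine proteases, was at 32.6 FPKM there and 28.6 FPKM in the Control-KD library (0.18), Ctse stood at 0.14, and Ctsl was lowest, at 12.9 FPKM in the LncHSC-2-KD library and 15.7 FPKM in the Control-KD library (−0.26), followed by Lgmn (−0.15).

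Hydrolases and their cofactors stood at a median of 0.05 in the LncHSC-1-KD library, with 21 of 31 above Control-KD. The ganglioside activator Gm2a was at 25.3 FPKM there and 20.7 FPKM in the Control-KD library (0.28), while Ids and Gusb were at −0.12. In the LncHSC-2-KD library their median was −0.01, with 14 of 31 above; Galc was at 6.48 FPKM there and 4.93 FPKM in the Control-KD library (0.33), Hgsnat at −0.17 and Ppt2 at −0.13.

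Membrane and sorting proteins were split evenly in the LncHSC-1-KD library, 12 of 24 above Control-KD, with a median of 0.00. The leukocyte tetraspanins Cd37 (0.29) and Cd53 (0.15) were highest, and Laptm4b, at 8.54 FPKM in the LncHSC-1-KD library and 10.9 FPKM in the Control-KD library (−0.32), and Gnptg (−0.24) were lowest. In the LncHSC-2-KD library 13 of 24 were above, with a median of 0.01, Cd9 at 0.16, Cd37 at 0.13, Laptm4b at −0.30 and Cd53 at −0.11. Subunits of the vacuolar ATPase, the proton pump that acidifies lysosomes, were above Control-KD in 4 of 15 cases in the LncHSC-1-KD library (median −0.04) and in 9 of 15 in the LncHSC-2-KD library (median 0.02). Their highest member in the LncHSC-1-KD library was the feature of Atp6v0c and its pseudogene (0.21), followed by Atp6v1b2 (0.06), and Atp6v1h and Atp6v1d were lowest (−0.12 each). In the LncHSC-2-KD library Atp6v0d1 (0.17) and Atp6v0c (0.13) were highest and Atp6v1h (−0.15) and Atp6v1d (−0.09) lowest.

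The transcription factors of lysosome genes had ratios below 0.32 in size in both knockdown libraries. Tfeb was at 5.55 FPKM in the LncHSC-1-KD library, 5.50 FPKM in the LncHSC-2-KD library and 4.87 FPKM in the Control-KD library. The median of the 5 measured factors was 0.05 in the LncHSC-1-KD library, with Usf2 at 0.06, Usf1 at 0.04 and Tfe3 at 0.03, and 0.03 in the LncHSC-2-KD library, with Tfec at 0.05, Tfe3 at −0.03 and Usf2 at −0.14. Cathepsin inhibitors had medians of 0.09 and 0.02 in the LncHSC-1-KD and LncHSC-2-KD libraries over 6 measured genes. The feature of Serpina3f and Serpina3g, serine protease inhibitor family members of which Serpina3g also blocks cysteine cathepsins, was at 1188 FPKM in the LncHSC-1-KD library, 905 FPKM in the LncHSC-2-KD library and 929 FPKM in the Control-KD library (0.35 and −0.04). Cystatin C, Cst3, was at 293, 291 and 249 FPKM in the same order (0.24 and 0.23) and Cstb at 0.10 and 0.12. Serpinb6a was lowest in both the LncHSC-1-KD (−0.12) and the LncHSC-2-KD library (−0.31), followed by Serpinb1a in the LncHSC-1-KD library (−0.00) and by Cst7 in the LncHSC-2-KD library (−0.10).

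**Figure D5:**
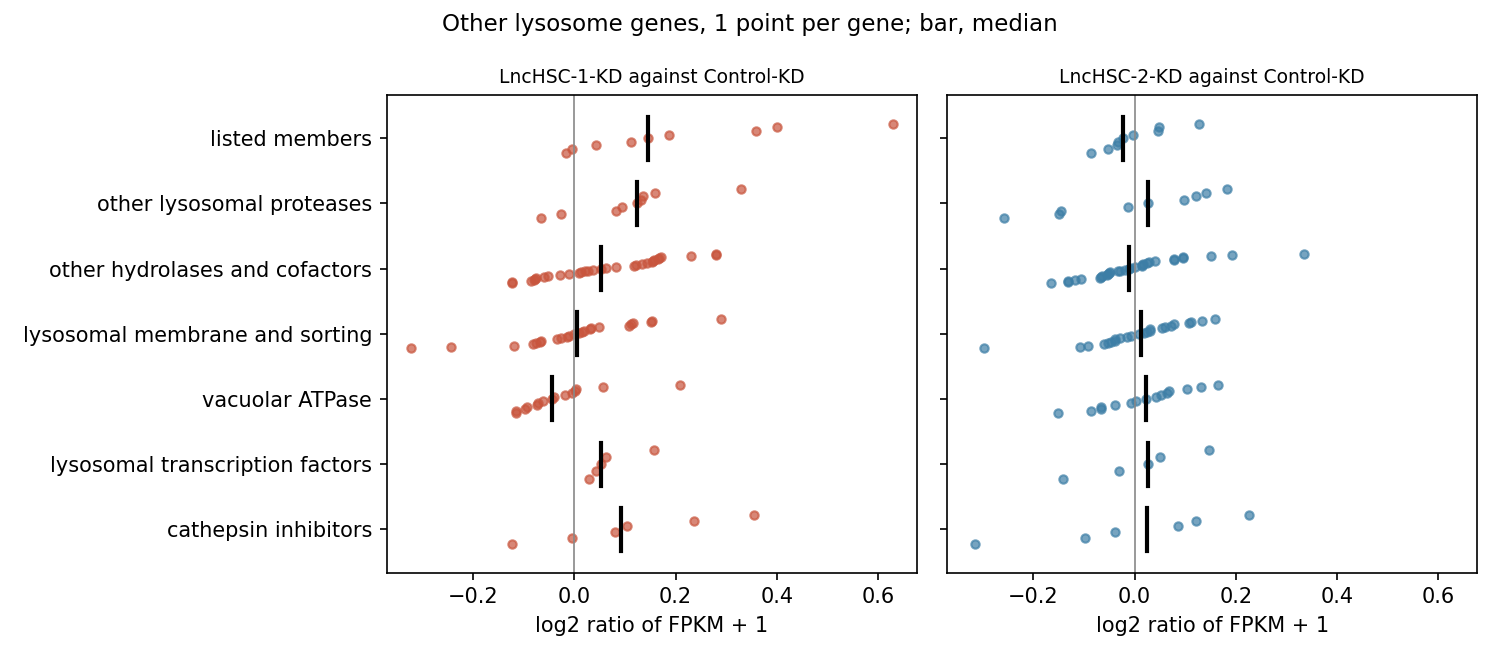
Log2 ratio of FPKM + 1 of each measured gene by list, for LncHSC-1-KD against Control-KD (left) and LncHSC-2-KD against Control-KD (right); bars mark list medians. The median of the 9 measured genes is 0.15 on the left and −0.02 on the right, and that of the vacuolar ATPase is −0.04 and 0.02.

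In granulocytes 79 of the 107 other lysosome genes reached 5 FPKM, where 6057 of all 34315 features did. By list these were 15 of 16 of the vacuolar ATPase, 25 of 36 hydrolases and cofactors and 22 of 27 membrane and sorting genes. The rest were 8 of 10 inhibitors, 4 of 6 transcription factors and 5 of 12 proteases. Psap, the precursor of the saposins that assist lipid breakdown, stood at 508 FPKM, near Ctsd, and at 183, 152 and 164 FPKM in the LncHSC-1-KD, LncHSC-2-KD and Control-KD libraries. Plbd1, a phospholipase-like granule protein, was at 472 FPKM in granulocytes and at 0.822, 0.737 and 0.501 FPKM in those KSL libraries. The alpha-mannosidase Man2b1 came after them in granulocytes, at 119 FPKM. Laptm5 (327 FPKM), Cd9 (257 FPKM) and Cd53 (178 FPKM) were highest of the membrane and sorting genes in granulocytes, and Atp6v1e1 (112 FPKM), Atp6v0b (106 FPKM) and Atp6ap1 (105 FPKM) of the vacuolar ATPase. Tfe3 was at 29.8, Tfeb at 26.6 and Usf2 at 24.3 FPKM. The neutrophil stefin Stfa2l1 was at 319 FPKM in granulocytes and at 0.268, 0 and 0 FPKM in the LncHSC-1-KD, LncHSC-2-KD and Control-KD libraries, and Cst3 and Serpinb1a were at 249 and 169 FPKM in granulocytes. Among the other proteases Napsa (53.2 FPKM), Ctse (37.9 FPKM) and Ctsg (17.2 FPKM) were highest in granulocytes, and stood at 116, 111 and 50.4 FPKM in the Control-KD library.

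The genes whose levels lay nearest were sought for 4 of the 10, by Euclidean distance of log2(FPKM + 1) over granulocytes and the 3 KSL libraries among 8477 named genes; this is a likeness of level over 4 conditions and no more. Lyz2 had no close neighbour: the nearest, S100a11 and Anxa1, were 2.45 and 2.49 log2 units away, at 1594 and 1994 FPKM in granulocytes. Ctsd lay nearest to Myl12b (0.30) and Gnai2 (0.35), and Cd63 to Tuba4a (0.21) and Fermt3 (0.42). Ctss lay nearest to Nampt (0.38) and Apoe (0.40). Apoe was at 62.5, 48.6 and 51.4 FPKM in the LncHSC-1-KD, LncHSC-2-KD and Control-KD libraries, and Nampt at 60.4, 52.2 and 53.0 FPKM. Both were picked by a distance that holds these values, so their likeness to Ctss is no separate result.

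In mm9 the other genes lie on chromosome 2 (Ctsa, plus strand, 164658373 to 164666532, and Ctsz, minus strand, 174252995 to 174264493), chromosome 3 (Ctss, plus, 95330708 to 95360325), chromosome 7 (Ctsd, minus, 149561821 to 149573775), chromosome 9 (Ctsh, plus, 89949105 to 89970933), chromosome 10 (Cd63, plus, 128345975 to 128349874), chromosome 11 (Cd68, minus, 69477873 to 69479564) and chromosome 14 (Ctsb, plus, 63741299 to 63764760), as the granulocyte tables give them. Each value is that of the whole gene feature and not of an exon or UTR. The KSL tables give longer spans to Ctsa (to 164683208), Ctsb (to 63796630) and Ctsz (from 174241305). The Ctsa feature overlaps Neurl2 and Pltp, which were at most 1.53 FPKM in KSL cells, and Ctsb overlaps Fdft1, at 17.4, 16.4 and 15.9 FPKM in the LncHSC-1-KD, LncHSC-2-KD and Control-KD libraries.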

How the data were processed

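The submitters' processing notes name the build mm9 and DESeq with aligner, counter and annotation release not given in the sources used here. FPKM was used as deposited by the authors. The KSL count columns as deposited are a signal, reads times 1 factor per library: 91.7% to 92.1% of values worth up to 20 reads were whole within 0.1 read. The granulocyte count columns as deposited are a score, reads times a factor, rounded; their FPKM divides that score by the same constant in both libraries. No count test was run.

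For features with a mean of at least 5 FPKM over the 3 KSL libraries, log2 ratios of FPKM + 1 were computed, which understates low genes. Exact binomial 95% intervals came from estimated reads (Python 3.11.15, scipy 1.17.1). They were run on simulated counts drawn from the model that they assume, which checks the computation and not the spread between libraries. Order of levels used exact Poisson intervals. Intervals, and the floor of 3 counts for a count of 0, cover counting error only. Rules of size were 2-fold and a log2 ratio of 0.32.

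The genes and lists were chosen with earlier results of these data known. Named list genes were the 2 highest and 2 lowest per list and knockdown and the 3 highest in granulocytes; some genes that this rule names are not reported here. Single marker genes and the overlapping features were named after their values were seen. Of 15 monocyte and 4 eosinophil symbols 14 and 3 matched. No sequences of proteins were used here.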

Additional observations from a re-analysis of the deposited data

How the results depend on the processing

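Alternatives were a pseudocount of 0.1 or 5 FPKM, a floor of 1 FPKM or none, FPKM centred on the median feature, the deposited count columns as they stand or centred, and features matched by whole name only. Of 216 ratios of single genes under these, 202 stayed within their counting interval, 14 left it, all with the count columns as they stand, and none that was past a log2 ratio of 0.32 changed sign. With those columns the median of the 9 genes was −0.17 for LncHSC-2-KD against Control-KD and 0.25 for LncHSC-1-KD against LncHSC-2-KD, and that of the other lysosome genes −0.14 and 0.16; the same columns move the median of all features to −0.14 and 0.12. Other lysosome genes past 0.32 in size in LncHSC-1-KD against LncHSC-2-KD then numbered 15 in place of 2. Of all 9153 features 846 then lay past 0.32 upwards and 120 downwards, in place of 302 and 231. The counts of the 9 genes past it stayed at 2 to 4 in both LncHSC-1-KD comparisons and at 0 in LncHSC-2-KD against Control-KD. With FPKM centred, 9 of 9 genes lay above Control-KD in the LncHSC-1-KD library in place of 7, where 4576 of all 9153 features did.

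The median level of the 10 genes in granulocytes, 42.9 FPKM, was 42.7 and 43.0 FPKM from either technical replicate alone. It was 96.6 when the mean of the replicates was rescaled by its summed FPKM, as in TPM. Percentiles were higher with a floor of 1 FPKM, that of Lyz1 in granulocytes being 74.9 in place of 58.4. No paired analysis was possible because each KSL group is 1 library. Depth limits Lyz1 in KSL cells, and Ctsh and Cd68 have the widest intervals of the measured genes.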
